A study of Thermothelomyces thermophilus ATCC 42464 with 4 samples.

Results

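Cytosine methylation was measured in blocks of intermediate length, 4 to 19 kb, of the genome of the thermophilic fungus Myceliophthora thermophila. A 1-kb window was called occupied where both wild-type lists of methylated cytosines held at least 10 rows. Occupied windows of one chromosome were joined across gaps of at most 1 window. Blocks of 4 to 19 kb that lay more than 50 kb from the first and last row of the chromosome, and were not its longest block, were taken as medium blocks. This gave 114 medium blocks of 403 blocks in all. They covered 1279 kb and held 1275 of the occupied windows, which is 12.2% of them, and 14.6% of the sites listed in every library. The number of rows in the wild-type lists therefore chose these blocks. Row numbers, block lengths and positions are descriptions here and were not tested.

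Strains WT and ΔlaeA were compared, each with 2 whole-genome bisulfite libraries of mycelium grown for 24 h with glucose. The sample titles name the mutant a deletion, its genotype label a knockdown, and the study's methods describe a strain in which a selection marker replaced the laeA coding region. LaeA is a putative methyltransferase and global regulator in filamentous fungi, and the comparison addresses whether its loss alters DNA methylation. Bisulfite turns unmethylated cytosine into uracil, so the methylation level of a site is the share of reads that still carry cytosine. Each list holds only cytosines called methylated, at a level of at least 5% and a depth of at least 5 reads, and these are called listed sites. Every listed site also had at least 2 methylated reads and a low adjusted p in the authors' own calling. A site with few reads therefore needed a higher level to be listed. Levels below are pooled over the sites listed in all 4 libraries (shared sites), so they describe called cytosines and lie above the level of all cytosines.

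In filamentous ascomycetes, cytosine methylation is concentrated in transposon relics and other repeats rather than in active genes. In Neurospora crassa, a relative of this fungus, such DNA has often passed through repeat-induced point mutation, which turns C into T and leaves AT-rich sequence poor in CG. There, methylation of histone H3 at lysine 9 recruits the DNA methyltransferase through heterochromatin protein 1, and cytosines in every context can be methylated. The contexts are CG, CHG and CHH, in which H stands for A, C or T.

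The 4 libraries held between 1899567 and 2044100 listed sites, with a median depth between 47 and 59 reads. In medium blocks WT replicates 1 and 2 listed 265310 and 268023 sites, and ΔlaeA replicates 1 and 2 listed 263679 and 248908. ΔlaeA replicate 2 was also the shallowest, with a median depth of 44 reads in medium blocks against 53, 56 and 54 reads in the others. The laeA gene (MYCTH_2294559, chromosome 1) lies 715.1 kb from the nearest medium block. WT listed 2 sites and 1 site in this gene and ΔlaeA listed 62 and 25 sites. Reads in both ΔlaeA libraries were therefore assigned to parts of the annotated gene. Neither ΔlaeA library listed a site in a stretch of 592 bp of the 1993 bp of the gene. WT replicate 2 listed 1 site there and WT replicate 1 listed 0. Before this stretch the 54 and 25 ΔlaeA sites had a median depth of 11 reads in both libraries, against library medians of 56 and 47. The 2 sites of WT replicate 1 there had 32.5. After the stretch, 8 sites of ΔlaeA replicate 1 had a median depth of 37 reads. The origin of these reads was not tested. Because the lists omit unmethylated cytosines, they do not show whether that stretch was absent, and ΔlaeA is used here as the name on the labels.

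Medium blocks occurred on all 7 chromosomes, with 34 on chromosome 1, 10 on chromosome 2, 17 on chromosome 3, 12 on chromosome 4, 21 on chromosome 5, 10 on chromosome 6 and 10 on chromosome 7. Their median length was 12 kb. In 111 blocks every window was occupied. The nearest other block lay a median of 8 kb away: 50 blocks were more than 10 kb and 16 more than 50 kb from any other block, while 18 lay within 3 kb of one. Among blocks with at least 10 shared sites, this median was 9 kb for inner blocks of 20 kb or more and 19 kb for those of 1 to 3 kb. Listed sites outside blocks do not enter this distance. Applied to the ΔlaeA lists, the same rule also gave 114 medium blocks. Of these, 100 had the same start and end as in WT, which is 87.7% of each set. Of the 14 others, 6 were shifted by 1 window only, 2 were split and none was absent. The largest change was at chr7:374001-386000, which became part of a block of 115 kb. By the ΔlaeA lists, chr4:3463001-3467000 lay in a block of 92 kb and chr2:284001-296000, a called rise below, in one of 59 kb. Smaller changes were at chr1:10190001-10194000 (13 kb), chr2:263001-282000 (21 kb) and chr3:3797001-3806000 (5 kb).

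Most medium blocks lay between genes. On the RefSeq annotation of assembly ASM22609v1, 84 blocks had no gene between their outermost sites. These 84 gene-free blocks filled a median of 71.8% of the interval between the flanking genes, and 37 of them filled at least 80%. The nearer flanking gene began a median of 448.5 bp from the outermost site, and 60 gene-free blocks had a gene within 1000 bp on at least 1 side. Inner blocks of 1 to 3 kb that had at least 10 shared sites filled a median of 37.7% of such intervals, and those of 20 kb or more filled 95.2%. Block length was set by the rule, so this order is a description.

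In medium blocks, 5.98% of listed sites of WT replicate 1 lay inside annotated genes, and this share was 26.0% when all genes were shifted by 5000 bp. Over all listed sites of this library the shares were lower, at 3.35% and, after the same shift, 11.54%. Windows of medium blocks touched 87 genes, of which 53 held no shared site and 25 held at least 10. At least 1 listed site in at least 1 library was found in 60 of these genes.

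A total of 21 genes lay wholly inside a medium block, among them 2 tRNA genes with no listed site. The longest was MYCTH_2053156 (3752 bp, in chr1:6002001-6016000), with 625 shared sites. Its level was 20.2% and 20.1% in WT and 17.5% and 17.9% in ΔlaeA, so both ΔlaeA values lay below both WT values. MYCTH_2050561 (366 bp, in chr1:10378001-10392000) is annotated as a reverse transcriptase, the enzyme by which retrotransposons copy themselves. Its 58 shared sites gave 18.8% and 19.1% in WT and 17.2% and 16.4% in ΔlaeA.

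The neighbouring genes MYCTH_91077 and MYCTH_91076 lay with MYCTH_2050269 in one block of chromosome 1. MYCTH_91077 had levels of 26.7% and 26.5% in WT and 27.2% and 25.9% in ΔlaeA, so the strains overlapped. MYCTH_91076 had 25.8% and 25.9% in WT and 25.6% and 25.7% in ΔlaeA. Genes were not tested one by one. A block of chromosome 4 held MYCTH_95222, MYCTH_95223 and MYCTH_95224. MYCTH_95222 had 16.96% and 16.67% in WT and 15.95% and 13.46% in ΔlaeA. MYCTH_95223, with 36 shared sites, had 14.45% and 14.13% in WT and 10.92% and 12.3% in ΔlaeA. MYCTH_95224, with 1 shared site, allows no comparison. The other whole genes with at least 10 shared sites were MYCTH_83591, MYCTH_50019, MYCTH_2054232, MYCTH_2060854, MYCTH_2066192, MYCTH_2067066, MYCTH_41181 and MYCTH_50908. No product name was available for them in the sources used here.

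Some medium blocks lay inside long gene models. The block chr7:1401001-1416000 is covered whole by MYCTH_117478 (19477 bp), annotated as a fungal transcriptional regulatory protein. Its 2094 shared sites had levels of 17.2% and 17.6% in WT and 16.7% and 16.4% in ΔlaeA. The 4-kb block chr1:2638001-2642000 lies within MYCTH_2313501 (41976 bp), where 702 shared sites had 40.09% and 40.01% in WT and 39.13% and 35.52% in ΔlaeA. In 10 genes that were only partly inside a medium block there were at least 10 shared sites.

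The methylation level differed widely among medium blocks, from 8.50% to 47.7% in the mean of the WT libraries, with a median of 20.3%. Replicates were mostly close: over the 113 blocks with at least 10 shared sites, the WT libraries differed by a median of 0.31 percentage points and the ΔlaeA libraries by 0.53. The largest replicate difference was 2.775 points in WT and 3.607 in ΔlaeA. The ΔlaeA replicates differed mostly in one direction, with replicate 1 above replicate 2 in 88 blocks. WT replicate 1 lay above WT replicate 2 in 36. Wilson 95% intervals of single block levels had a median half-width of 0.273 points and cover counting error only. Shorter blocks were on the whole more methylated. The 21 blocks of 4 to 6 kb had a median WT level of 22.2%, the 28 of 7 to 9 kb 21.8%, the 23 of 10 to 13 kb 19.5%, the 20 of 14 to 16 kb 18.1% and the 22 of 17 to 19 kb 18.2%. At the limits of the rule, the 27 inner blocks of 3 kb had a median of 31.3% and the 10 medium blocks of 4 kb 36.2%. At the other limit, the 4 medium blocks of 19 kb had 15.3% and the 3 inner blocks of 20 kb 20.3%.

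**Figure D1:**
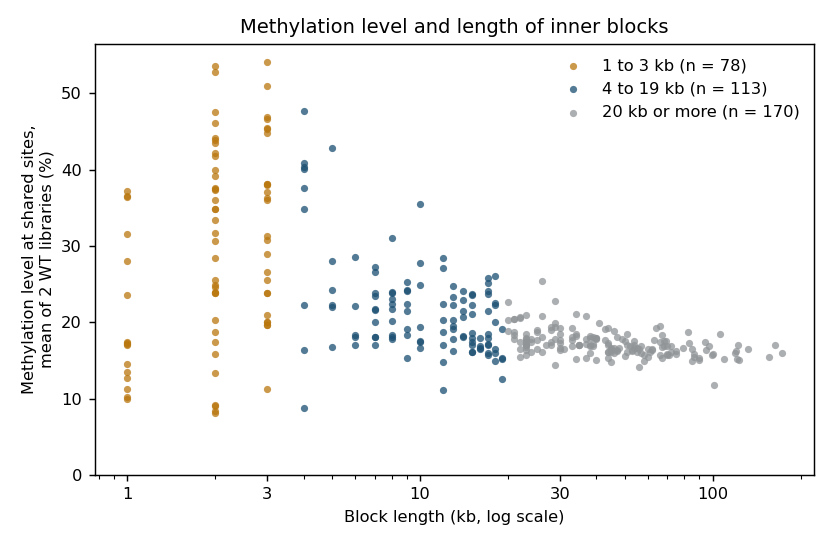
Mean methylation level of the 2 WT libraries at shared sites (%) against block length (kb, log scale) for inner blocks with at least 10 shared sites, 1 point per block. Blocks of 1 to 3 kb spread widely, the 113 blocks of 4 to 19 kb narrow from levels up to 47.7%, and blocks of 20 kb or more gather near 17%.

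The most methylated medium block was chr1:6762001-6766000, which lies beside MYCTH_2297685. It had 757 shared sites, with 46.7% and 48.6% in WT and 44.4% and 43.2% in ΔlaeA. Next were chr1:3365001-3370000 at 42.2% and 43.5% in WT, and chr1:3533001-3537000 at 40.3% and 41.6%. In ΔlaeA these had 41.7% and 38.9%, and 41.7% and 38.9% respectively, so the strains overlapped in the second of them and not in the first. All 3 were short and thinly covered, with a mean WT depth of 0.701, 0.658 and 0.684 of the library median.

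The least methylated was chr4:3463001-3467000, with only 9 shared sites, at 7.22% and 9.79% in WT and 11.8% and 8.35% in ΔlaeA. It was the only medium block that missed the minimum of 10 shared sites. The next lowest, chr1:10190001-10194000, had 14 shared sites and levels of 8.92% and 8.60% in WT and 11.71% and 10.02% in ΔlaeA. The third was chr2:284001-296000, at 11.1% and 11.2% in WT and 12.8% and 12.9% in ΔlaeA. These low blocks each lay 2 kb from another block and far from genes: the nearest annotated genes were MYCTH_2307299 at 35013 bp, MYCTH_2051168 at 13663 bp and MYCTH_2057467 at 47130 bp.

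Blocks with a higher relative depth had a lower level (Spearman rho of -0.69 over 114 blocks), as had longer ones (rho of -0.33). The level was higher with the number of shared sites per kb (rho of 0.80) and with the share of CG among shared sites (rho of 0.51). The blocks share the same 4 libraries, and a more methylated cytosine is more readily listed. At low depth a higher level is needed for listing, so these values, that for depth included, are descriptions. Relative depth of no medium block exceeded 1.5, the highest being 1.10 at chr5:3725001-3732000, beside MYCTH_95606. This block had 16.6% and 17.3% in WT and 14.9% and 16.2% in ΔlaeA. The next were chr6:104001-120000, beside MYCTH_2309725, at 16.5% and 16.8% in WT and 15.6% and 15.3% in ΔlaeA, and the 19-kb block chr3:59001-78000, with MYCTH_2060854 inside, at 15.2% and 15.3% in WT and 14.3% and 14.7% in ΔlaeA.

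All contexts were methylated, and CG was the least methylated of the 3. CHH sites made up 80.1% of shared sites of medium blocks, CG sites 10.9% and CHG sites 9.08%. The WT level was 18.7% ± 0.059 (SD, n = 2) at CG, 22.4% ± 0.20 at CHG and 21.7% ± 0.14 at CHH sites. Of the 109 blocks with at least 10 shared sites in each context, the CG level lay below the CHH level in 108 in all 4 libraries. The CHG level lay above the CHH level in the WT mean of 77 of these blocks. Across blocks the contexts moved together, with a Spearman rho of 0.96 between CG and CHH levels over 109 blocks.

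Medium blocks were more methylated than large blocks and less than small ones. The pooled level of medium blocks was 21.3% and 21.5% in WT replicates 1 and 2, and 20.8% and 20.2% in ΔlaeA replicates 1 and 2. Inner blocks of 20 kb or more, the longest of each chromosome included, had 16.99%, 17.02%, 16.69% and 16.59% in the same order. Inner blocks of 1 to 3 kb had 34.2%, 34.9%, 34.1% and 31.4%. Medium blocks thus exceeded large blocks by 4.16 ± 0.37 points (SD over 4 libraries) and fell short of small ones by 12.7 points (mean of -12.7 ± 1.03). Both differences had the same sign in 4 of 4 libraries, and each gave p = 0.13 in an exact two-sided sign permutation test, the smallest p that 4 libraries can give. As a mean over blocks, the difference from small blocks was -7.63 points.

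The level was not even along a block. It was low at the outermost sites, rose to a maximum within the first kb and then declined towards the middle. In the outer 100 bp the level was 16.8% and 17.2% in WT and 15.7% and 15.5% in ΔlaeA. At 500 to 750 bp from the nearer end it was 28.4% and 28.9% in WT and 28.0% and 26.5% in ΔlaeA. From 6000 to 9500 bp, reached in 50 blocks, it was 17.6% and 17.6% in WT and 17.3% and 16.9% in ΔlaeA. Ends were set by the outermost sites listed in both WT libraries.

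Between 250 and 1000 bp from an end the level was 27.7%, 28.2%, 27.1% and 25.9% in the order of libraries above, against 18.6%, 18.7%, 18.2% and 18.0% at 3000 bp or more. This difference of 8.83 ± 0.66 points (SD over 4 libraries) had the same sign in 4 of 4 libraries (exact two-sided sign permutation test, p = 0.13, the smallest possible). It was chosen for testing after the profile had been seen. Of 90 blocks with at least 10 shared sites in both zones, the outer zone was higher in all 4 libraries in 82 and lower in all 4 in 0. The ends with the low and the high coordinate were alike, at 28.2% and 27.7% in the WT mean. Each context showed the rise: CG had 24.7% in the outer and 16.6% in the inner zone in WT, CHG 30.1% and 19.5%, and CHH 28.2% and 18.9%.

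Depth moved with this profile. At 500 to 750 bp the mean depth relative to the library median was 0.858, 0.839, 0.878 and 0.809 in the 4 libraries, and beyond 6000 bp it was 1.04, 1.02, 1.04 and 1.01. At the outermost 100 bp depth was also below the library median. The part of depth in the profile was not tested. Restricted to sites where each library had at least 20 reads, the difference between zones was 8.52 points. Large blocks had the same shape at a lower level, with WT means of 16.2% in the outer 100 bp, 25.8% at 500 to 750 bp and 16.6% from 6000 to 9500 bp.

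**Figure D2:**
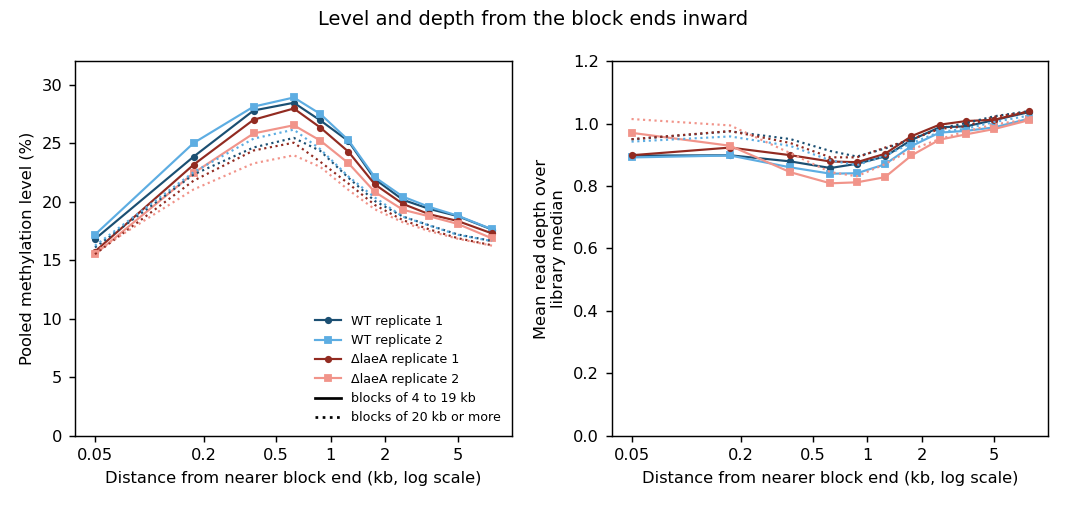
Pooled methylation level at shared sites (%, left) and mean depth over the library median (right) against the distance from the nearer block end (kb, log scale), 1 line per library. Solid lines are blocks of 4 to 19 kb and dotted lines blocks of 20 kb or more; the level peaks between 0.5 and 0.75 kb in all 4 libraries while depth is lowest there or just inside.

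The pooled level of medium blocks was lower in both ΔlaeA libraries. It was 21.4% ± 0.14 (SD, n = 2) in WT and 20.5% ± 0.44 in ΔlaeA, a difference of -0.89 points, or -4.14% of the WT level. Both ΔlaeA libraries lay below both WT libraries, with p = 0.33 by an exact two-sided permutation test, the lowest p that 2 libraries against 2 allow. The difference was -0.84 points at CG, -1.02 at CHG and -0.88 at CHH sites. It depended on the libraries and sites used: it was -0.57 points without ΔlaeA replicate 2, the shallowest library, -1.20 without ΔlaeA replicate 1, and -0.33 when every listed site of each library was pooled instead of shared sites. With blocks chosen on the ΔlaeA lists it was -0.93 points.

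The difference between strains varied along the profile. It was -1.37 points in the outer 100 bp, -1.43 points at 500 to 750 bp from the block ends and -0.56 points from 6000 to 9500 bp. The contrast between the outer and inner zones differed by -0.89 points between strains (exact permutation test, p = 0.33). The ΔlaeA replicates were unequal here. In the outer zone replicate 2, the shallowest library, had 25.9% and replicate 1 had 27.1%, against 27.7% and 28.2% in WT. The excess of medium over large blocks was 4.33 and 4.50 points in WT and 4.16 and 3.64 points in ΔlaeA, a difference of -0.52 points (exact permutation test, p = 0.33). Neither test can reach 0.05 with these libraries.

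Of the 113 medium blocks with at least 10 shared sites, 96 had a lower mean in ΔlaeA and 17 a higher one. Among all 388 blocks tested, 82.0% had a lower mean. The median difference was -0.998 points, within a range from -4.29 to 3.01, against a median of -0.66 over all blocks. In 76 medium blocks both ΔlaeA libraries lay below both WT libraries, and in 10 both lay above. Over all blocks, 66.2% had both ΔlaeA libraries below and 12.1% above, so these shares were close to the background.

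Each block was then tested by the quasi-likelihood F-test of edgeR, applied to its methylated and unmethylated reads, with Benjamini-Hochberg adjustment over all 388 blocks at 0.05. It called 43 medium blocks, 39 lower and 4 higher in ΔlaeA. Of all blocks tested, 36.6% were called, 33.0% lower and 3.61% higher, and the 38.1% of medium blocks called was near this background. The called falls lay between -0.69 and -4.29 points, on all chromosomes but chromosome 2, and the called rises between 1.37 and 3.01 points. The count rested on each WT library. Without WT replicate 1 the test called 0 medium blocks (43 at an unadjusted p under 0.05), and without WT replicate 2 it also called 0 (37 at an unadjusted p under 0.05). A quasi-binomial model on all 4 libraries called 11 of the 113 medium blocks, against 33 of all 388 blocks. With the mean difference of the libraries taken out by an offset, 25 of the 113 were called, 19 lower and 6 higher. Among all 388 blocks the offset left 69 called, or 17.8%.

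**Figure D3:**
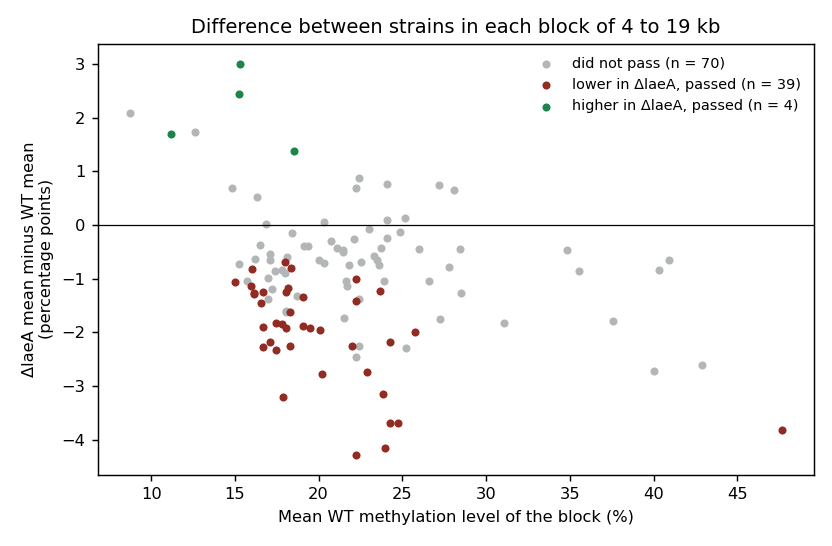
Difference of the mean methylation level, ΔlaeA minus WT (percentage points), against the mean WT level (%) for the 113 medium blocks tested, 1 point per block. Blocks called by edgeR are red (39 lower) and green (4 higher), and most points lie below 0 with a median of -0.998.

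The largest fall was at chr5:1182001-1197000. Its 2534 shared sites had levels of 22.3% and 22.2% in WT and 17.9% and 18.0% in ΔlaeA (-4.29 points, edgeR adjusted p = 0.014). The strains were apart by far more than the replicates. The gene MYCTH_2128790 (8005 bp) overlaps this block over 6599 bp, and its 1054 shared sites had 21.1% and 20.9% in WT and 17.3% and 17.4% in ΔlaeA. All windows of the block were lower in ΔlaeA, and 14 of them passed the window test. The outermost window fell from 40.302% and 36.086% in WT to 29.187% and 30.035% in ΔlaeA.

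The next largest fall was at chr3:1252001-1260000, which lies 1486 bp from MYCTH_2040766. Its level was 23.7% and 24.3% in WT and 20.2% and 19.4% in ΔlaeA (-4.15 points, edgeR adjusted p = 0.014). The most methylated block, chr1:6762001-6766000, was among the falls as well (-3.83 points, edgeR adjusted p = 0.044). At chr1:2920001-2933000, which lies 1111 bp from MYCTH_2106582, the level was 24.5% and 24.9% in WT and 21.3% and 20.8% in ΔlaeA (-3.69 points, edgeR adjusted p = 0.014). At chr6:1633001-1638000, whose windows reach MYCTH_2070469, it was 23.6% and 24.8% in WT and 21.2% and 19.9% in ΔlaeA (-3.69 points, edgeR adjusted p = 0.032). In each of these blocks both ΔlaeA libraries lay below both WT libraries. Over 15 alternative settings each, including those without a WT library, the adjusted p of these 5 blocks ranged up to between 0.114 and 0.163.

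The largest rise was at chr7:581001-600000, one of the longest medium blocks. Its 2147 shared sites had 15.2% and 15.4% in WT and 18.3% and 18.4% in ΔlaeA (3.01 points, edgeR adjusted p = 0.014). Its relative depth was low, at 0.773 in the WT mean. Its windows reach MYCTH_2311416, whose overlap with the block held at most 4 listed sites in any library. All windows of the block were higher in ΔlaeA, and 10 passed the window test.

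The other 3 rises each lay 2 kb from another block. At chr5:3175001-3184000, which holds MYCTH_2309088 and MYCTH_2066447 at least in part, the level was 15.8% and 14.7% in WT and 17.9% and 17.5% in ΔlaeA (2.44 points, edgeR adjusted p = 0.029). Its neighbour chr5:3186001-3201000, which lies 1434 bp from MYCTH_2066447, had 18.4% and 18.7% in WT and 20.3% and 19.6% in ΔlaeA (1.37 points, edgeR adjusted p = 0.046). At chr2:284001-296000 the rise was 1.70 points (edgeR adjusted p = 0.014). CG sites made up 0.348%, 5.06% and 4.05% of the shared sites of these 3 blocks, against a median of 10.1% over all medium blocks. At the largest rise, chr7:581001-600000, the share was 7.50%. The median share was 4.6% over the 4 rises and 9.4% over the 39 called falls. Low shares also occurred among the falls, such as 5.82% at chr6:1633001-1638000. Over the alternative settings the adjusted p of the 4 rises ranged up to 0.114 at chr7:581001-600000, 0.231 at chr5:3175001-3184000, 0.448 at chr5:3186001-3201000 and 0.48 at chr2:284001-296000.

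**Figure D4:**
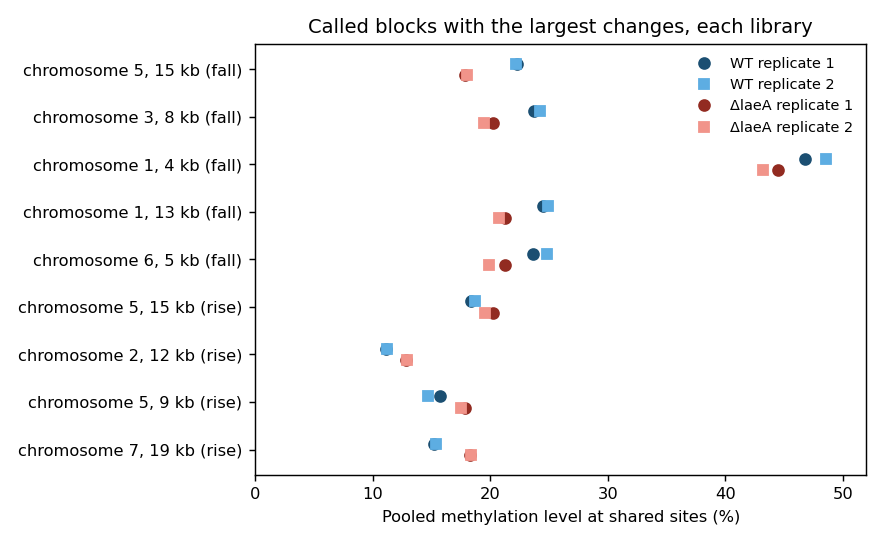
Pooled methylation level at shared sites (%) of the 5 called medium blocks with the largest falls and the 4 called rises, 1 point per library. Both ΔlaeA points lie on the same side of both WT points in every block, from -4.29 points on chromosome 5 to 3.01 points on chromosome 7.

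The adjoining 19-kb block chr2:263001-282000, which lies 31043 bp from MYCTH_2059724, had 12.6% and 12.6% in WT and 14.9% and 13.8% in ΔlaeA (1.73 points, edgeR adjusted p = 0.053). It did not pass the threshold, and CG sites made up 0.804% of its 373 shared sites. The fourth block of 19 kb, chr6:3511001-3530000, lies 556 bp from MYCTH_2310989. It had 19.147% and 19.001% in WT and 17.825% and 17.641% in ΔlaeA (-1.34 points, edgeR adjusted p = 0.019).

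Among the 17 tested medium blocks that lay within 3 kb of another block, 9 had a lower and 8 a higher mean in ΔlaeA. Among the 96 others, 87 had a lower and 9 a higher mean. The difference between these counts was seen in the data and was not tested. Over the 84 gene-free blocks, the difference between strains was more positive with a greater length of the interval between the flanking genes (Spearman rho of 0.49). This value is a description, and the blocks share the same 4 libraries.

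Windows of 1 kb showed where within blocks the strains differed. Of 1224 windows of medium blocks tested with edgeR, with adjustment over 10187 windows of the genome, 125 were called, 107 lower and 18 higher in ΔlaeA. Of all windows, 4.77% were called, 3.62% lower and 1.15% higher, against 10.2% of the windows of medium blocks, and this gap was not tested. The count was 37 without WT replicate 1 and 30 without WT replicate 2. Called windows were found in 53 medium blocks, of which 47 held only falls, 5 only rises and 1 both.

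Called windows were more frequent at the ends of medium blocks than further in, and this was not tested. Blocks and their ends were set on the WT lists, so the counts of falls and rises below hold for that choice. End windows of blocks chosen on the ΔlaeA lists were not tested. Of 203 outermost windows, 30 were called lower and 4 higher. Of 218 windows next to them, 30 were lower and 2 higher. Of 606 windows further in, from the fourth inward, 31 were lower and 10 higher. The shares called were 16.7%, 14.7% and 6.77%, against 18.1%, 14.2% and 2.83% at the same positions in all blocks. The median WT level in medium blocks was 22.1% in the outermost windows and 17.4% from the fourth inward. The median difference was -1.57 points in the outermost windows and -0.67 points in those from the fourth inward. The fall was largest in the outermost window of chr1:3365001-3370000, where 11 shared sites had 29.2% and 22.1% in WT and 15.7% and 14.3% in ΔlaeA (-10.7 points, edgeR adjusted p = 0.0049). The rise was largest in the outermost window of chr7:581001-600000, with 39 shared sites at 21.8% and 24.6% in WT and 29.1% and 30.1% in ΔlaeA (6.39 points, edgeR adjusted p = 0.0083).

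**Figure D5:**
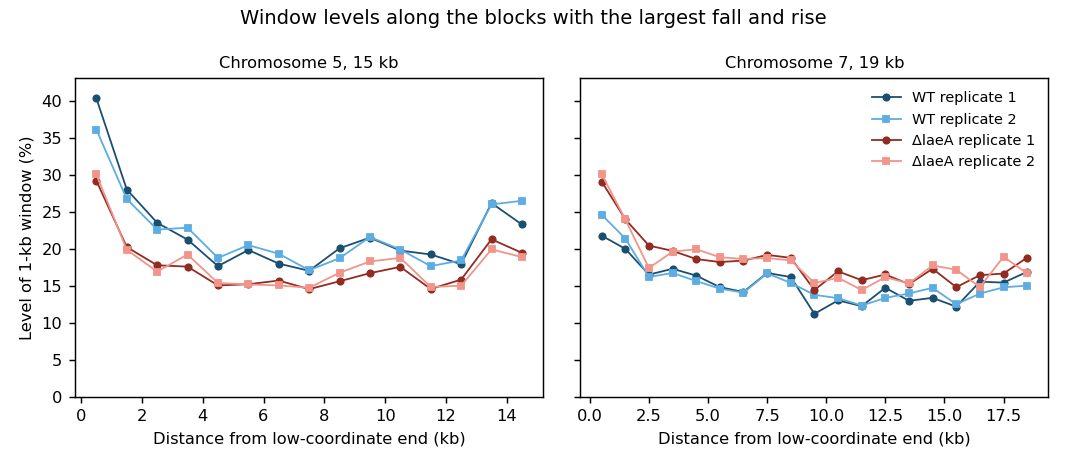
Methylation level of each 1-kb window (%) against the distance from the low-coordinate end (kb), 1 line per library, for the medium blocks with the largest fall (chromosome 5, 15 kb) and the largest rise (chromosome 7, 19 kb). The ΔlaeA lines lie below the WT lines along the first block and above them along most of the second.

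By context, the block test called 11 medium blocks lower and 1 higher at CG sites, 35 lower and 1 higher at CHG sites, and 38 lower and 4 higher at CHH sites. Called blocks made up 11.0% of the medium blocks tested at CG sites against 22.9% of all blocks, 32.4% against 35.3% at CHG sites and 37.2% against 33.2% at CHH sites. The share at CG sites was thus the farthest from its background, and this gap was not tested. The median difference was -0.97 points at CG, -1.16 at CHG and -0.95 at CHH sites. The medians of the contexts thus lay close together while the numbers of calls did not.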

How the data were processed

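The authors deposited, for each of 4 bisulfite libraries, a list of called cytosines with methylated and unmethylated read counts, the level as a fraction, and a p-value and adjusted p-value, all computed by the authors before deposit. The submitters' processing notes name FastQC 0.11.5 and Bismark 0.16.3; the genome build is not given in the sources used here. The authors' table of differentially methylated regions was not used, since it holds their own comparison.

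Medium blocks and all lists were chosen with earlier results of these data known. Reads at shared sites were summed over blocks and over 1-kb windows with at least 10 shared sites and tested with edgeR 4.0.16 in R 4.3.3 (quasi-likelihood, no dispersion trend, strain as the only term, adjustment over all blocks or windows, threshold 0.05). Pooled levels were compared by exact permutation. The procedure was run on simulated counts with known changes. These had no shift of whole libraries and the same spread in both strains, so the check does not cover such features. Blocks were named if among the 5 largest called falls or 5 largest called rises, the 3 highest or 3 lowest WT levels, the longest, or the 3 highest relative depths, and genes if wholly inside a block or nearest to a named block; MYCTH_117478 and MYCTH_2313501, and chr7:374001-386000, were named after their values were seen. Nothing states that libraries came from separate cultures, so p-values measure only the spread between libraries, which may be technical. Alternatives were other site and row minimums, joining gaps, contexts, a library offset, a replicate block, a quasi-binomial model and each library left out. Sites deeper than 2 times the library median were left out in one alternative. Coordinates are those of the lists; sequences are not shown.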

Additional observations from a re-analysis of the deposited data

How the results depend on the processing

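The number of medium blocks called (43) was 25 with a library offset, 12 with CG sites only and 11 with a quasi-binomial model; the cause was not tested. Leaving out 1 library at a time, it ranged from 0 to 46, with fewer libraries in the fit and the lone library of a strain assumed to vary like the other strain. Of the 25 blocks called with the offset, 23 were among the 43. With the other 11 alternatives (site minimums, coverage, CHG or CHH sites only, a depth cap, joining gaps and row minimums) the count was between 36 and 54. The number of medium windows called (125) was 30 with CG sites only and 30 with CHG sites only, and from 30 to 131 with 1 library left out. With the replicate number as a block, 22 medium blocks (all among the 43) and 118 windows were called. Replicate numbers did not pair the libraries: the correlation of same-numbered deviations was -0.046 over all blocks and 0.0018 over all windows.

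The difference between strains in pooled level kept its sign under each alternative, from -0.33 points (all listed sites) to -1.20 points (without ΔlaeA replicate 1), as did the differences of medium from small blocks (from -7.63 to -13.7 points), of medium from large blocks (from 3.77 to 4.58 points) and of outer from inner zones (from 6.798 to 10.2 points, alternatives chosen after seeing the data). With 2 libraries a strain, no exact test of pooled levels could pass 0.05. The lists omit weakly methylated cytosines, so a loss below the calling limit in 1 strain is not seen at shared sites.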
